A study of Mus musculus with 6 samples.

Results

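The G2/M and mitotic spindle genes examined here are 54 mouse genes that act between the end of DNA replication and the division of the cell. They were chosen by symbol, as the rows of the raw count table whose symbol equals a listed member. The rule itself uses no measured value, but the list was drawn up with earlier results of these data known. All 54 were found among the 14831 genes listed, and all 54 were among the 14289 genes with enough counts to be tested. The cells were immortalized pancreatic fibroblasts, that is, connective tissue cells of the mouse pancreas that grow without limit in culture, and their polyadenylated RNA was sequenced. GLI2 and GLI3 are transcription factors that carry the Hedgehog signal to its target genes, and the study compared fibroblasts with and without them.

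Of the 6 libraries, 3 carried the WT label and 3 the genotype label Gli2-/-;Gli3-/-, here called labelled WT and labelled KO. The strain is given as Mixed, and every library came from its own well of cells at confluence in DMEM with calf serum and Pen/Strep. By the study's methods, such lines grew out of adult pancreas from mice with floxed Gli alleles, so the control cells carried the floxed alleles too. After immortalization, control cells received an adenovirus for eGFP and a lentivirus for dsRed, and the knockout cells received adenoviruses for eGFP and for Cre, both from the CMV promoter, before infected cells were sorted. The viruses and the genotype therefore cannot be told apart. How many lines or mice stand behind each label is not given in the sources used here, so the p-values measure the spread between wells.

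Library totals ran from 31728420 to 33905521 counts for labelled WT and from 32781730 to 41035931 for labelled KO. Gli2 had 809, 944 and 868 counts for labelled WT and 1932, 2316 and 1926 counts for labelled KO (log2 fold change 1.05, SE 0.04). Gli3 had 392, 416 and 398 counts against 1434, 1637 and 1404 (1.71, SE 0.05). Both genes therefore go against their labels, although counts over a whole gene include exons outside a deleted part and may check nothing about the deletion. The paper checked Gli deletion in its fibroblast lines by qPCR and western blot. It also reports that its Gli2/Gli3 knockout fibroblasts did not respond to Hedgehog stimulation. Each direction below is between libraries as labelled. Of 10 fibroblast markers, all 10 were measured, and their summed level was 57400 to 58130 CPM (gene counts scaled to a library of fixed size) for labelled WT and 47300 to 49660 CPM for labelled KO, with Pdgfra, Pdgfrb, Col3a1 and Dcn called lower and S100a4 higher. Thy1, a surface marker of many fibroblasts, had 0 to 4 and 9 to 19 counts. Summed levels were 39.5 to 45.6 against 38.4 to 40.1 CPM for the 3 of 8 leukocyte markers that were listed. For 4 of 8 epithelial markers they were 12.8 to 13.8 against 29.5 to 30.4 CPM, with Krt7, a duct keratin, and Cdh1 called higher and Krt8 at 0 to 2 against 7 to 12 counts. The fourth of these, Sox9, went the other way, with 269 to 281 against 198 to 251 counts (log2 fold change -0.50, adjusted p = 0.000173 by edgeR's quasi-likelihood test), and stayed under 1.5-fold. The acinar list held 1 of 8 markers, the elastase Cela1, at 7.36 to 8.84 against 13.6 to 15.4 CPM. None of 6 endothelial markers was among the 14831 genes listed, and a gene missing from that list has no count here. The part of any of these cells in the results was not tested.

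Cells enter mitosis when CDK1, bound to cyclin A or B, is freed of inhibitory phosphates by CDC25 phosphatases. Aurora and Polo-like kinases and kinesin motors then build the spindle, kinetochores tie the chromosomes to it, and the checkpoint holds back the anaphase-promoting complex until every chromosome is attached. Transcripts of these genes build up in G2 and M, through FOXM1 and B-MYB and a promoter element called CHR (cell cycle genes homology region), and they are low in resting cells.

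Before the levels, 6 promoters are shown because they set members with large differences between the groups beside members with small ones. Each run covers 150 bases before to 50 bases after the RefSeq start of the gene, read 5′ to 3′ on the gene's strand, with build GRCm38.p6. Capitals mark the CHR letters TTTGAA or TTTAAA and the CCAAT letters, on either strand (TTCAAA and ATTGG on the other strand). Ccnb2 lies at chr9:70421505-70421704 on the minus strand, Ccnb1 at chr13:100786437-100786636 on the minus strand and Plk1 at chr7:122159285-122159484 on the plus strand. Nek2 lies at chr1:191821323-191821522, Bub3 at chr7:131560220-131560419 and Cdc25b at chr2:131186798-131186997, all on the plus strand.
Ccnb2: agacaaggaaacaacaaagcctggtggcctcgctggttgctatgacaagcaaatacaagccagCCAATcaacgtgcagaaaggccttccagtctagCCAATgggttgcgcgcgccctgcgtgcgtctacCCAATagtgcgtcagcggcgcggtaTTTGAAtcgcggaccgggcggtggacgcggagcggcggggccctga
Ccnb1: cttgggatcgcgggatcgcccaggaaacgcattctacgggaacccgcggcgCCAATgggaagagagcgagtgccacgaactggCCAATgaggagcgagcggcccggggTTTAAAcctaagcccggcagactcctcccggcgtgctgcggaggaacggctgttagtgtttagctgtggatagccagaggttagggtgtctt
Plk1: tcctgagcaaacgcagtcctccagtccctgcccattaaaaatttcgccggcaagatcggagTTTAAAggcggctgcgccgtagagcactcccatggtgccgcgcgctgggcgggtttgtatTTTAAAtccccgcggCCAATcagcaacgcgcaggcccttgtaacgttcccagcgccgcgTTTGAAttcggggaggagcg
Nek2: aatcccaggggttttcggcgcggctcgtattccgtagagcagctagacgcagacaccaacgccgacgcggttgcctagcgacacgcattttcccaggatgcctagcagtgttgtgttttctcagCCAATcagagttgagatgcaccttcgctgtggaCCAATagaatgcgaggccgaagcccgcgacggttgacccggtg
Bub3: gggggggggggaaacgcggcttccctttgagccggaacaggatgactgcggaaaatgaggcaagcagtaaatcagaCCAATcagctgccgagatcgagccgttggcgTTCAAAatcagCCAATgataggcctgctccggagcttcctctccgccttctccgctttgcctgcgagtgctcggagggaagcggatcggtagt
Cdc25b: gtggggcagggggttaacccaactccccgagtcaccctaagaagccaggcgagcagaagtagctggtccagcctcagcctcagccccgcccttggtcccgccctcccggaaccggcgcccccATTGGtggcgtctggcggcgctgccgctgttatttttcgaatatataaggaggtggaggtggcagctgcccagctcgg

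The Ccnb2 window held 3 CCAAT matches, 87, 54 and 21 bases before the start, with a CHR match 4 bases after it. In Ccnb1 the CHR letters lay 42 bases before the start, behind CCAAT matches at 99 and 67 bases. Plk1 held 3 CHR matches and Nek2 none, and both genes rose by more than 3-fold. Bub3 had a CHR match 43 bases before its start and 2 CCAAT matches, and Cdc25b had 1 CCAAT match and no CHR match, and neither gene was called. A match is a description of letters and not of a bound factor.

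Of the 54 genes, 51 were called higher in the libraries labelled KO and 0 were called lower. A call required that edgeR's quasi-likelihood test gave p below 0.05 after Benjamini-Hochberg adjustment and that the level differed by 1.5-fold or more. That is 94.4% of the members, beside 11.6% of all genes tested called higher and 6.1% called lower. The median log2 fold change (labelled KO minus labelled WT) was 1.53, or 2.89-fold, beside 0.00197 over all genes tested. Called members ranged from 1.60-fold for Cenpk to 4.31-fold for Ska1, and 47 changed by at least 2-fold. With the adjusted p limit kept, 1052 of 14289 genes tested were at least 2-fold higher and 404 at least 2-fold lower. By edgeR's quasi-likelihood test none of the 51 had an adjusted p above 2.9e-05. In bulk RNA a larger share of cells in G2 and mitosis and more of each transcript per cell cannot be told apart. For mice with Gli2 and Gli3 deleted in fibroblasts, the paper reports no difference in fibroblast proliferation, scored with the marker PHH3. Those were fibroblasts in pancreas tissue with early lesions, and not the cultured lines sequenced here.

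By adjusted p alone, 53 members were higher, beside 29.9% of all genes, and 1 was lower, beside 28.8%. The 3 libraries labelled KO did not overlap with the 3 labelled WT for any member, with 53 higher, a pattern that 32.9% of all genes tested showed in that direction. The share of all genes lower without overlap was not counted, so the 1 lower member has none beside it. The 3 members not called were Cdc25b, Bub3 and Pttg1. The share of all counts taken by the 54 genes was 0.0805, 0.0687 and 0.0693% for labelled WT and 0.189, 0.184 and 0.163% for labelled KO.

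**Figure D1:**
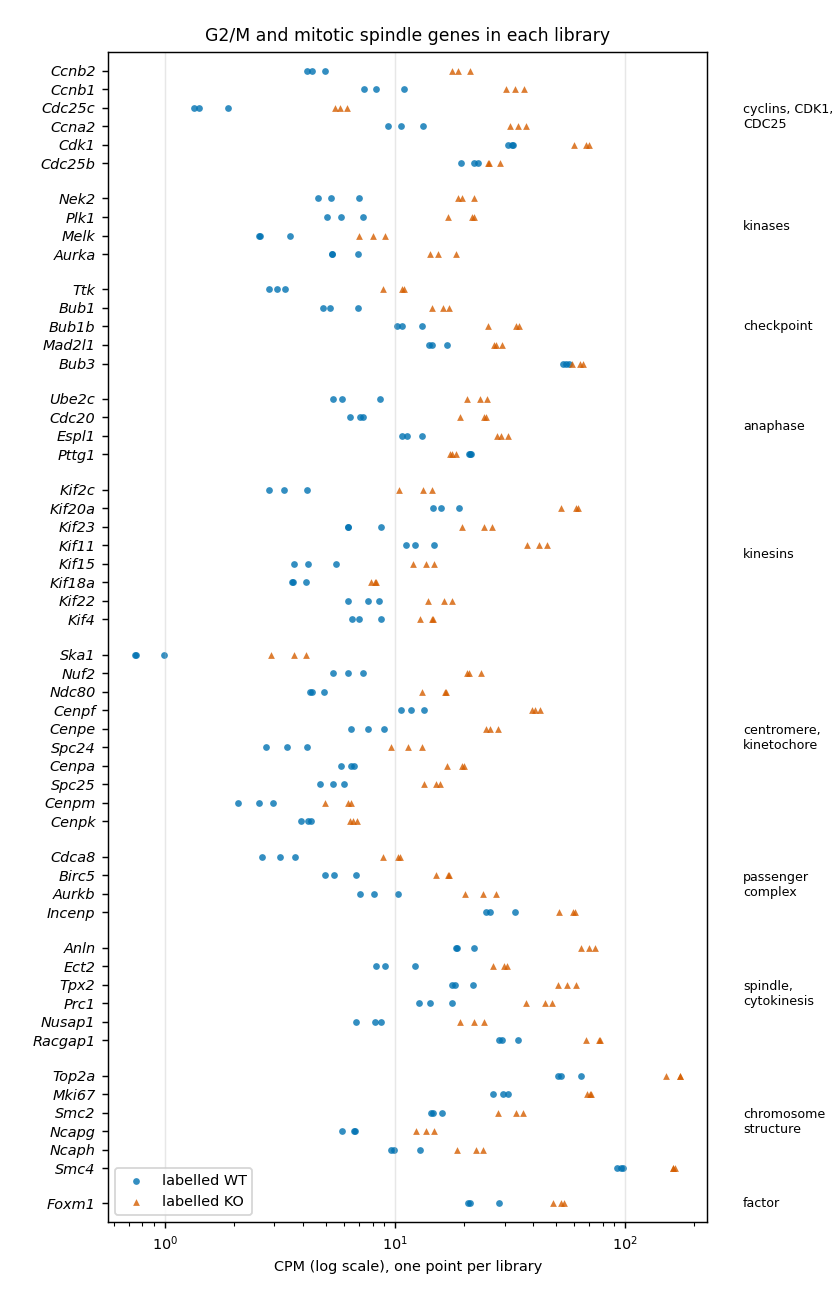
Level of each of the 54 genes in CPM on a log axis, 1 point per library, circles for the 3 libraries labelled WT and triangles for the 3 labelled KO, grouped by role and ordered within a role by log2 fold change. The triangles lie to the right of the circles for 53 genes, and for Pttg1 they lie to the left.

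Among the cyclins, CDK1 and the CDC25 phosphatases, 5 of 6 genes rose. Ccnb1, which encodes cyclin B1, the main mitotic partner of CDK1 (chr13:100778650-100786570, minus strand), was at 10.9, 8.30 and 7.33 CPM in the libraries labelled WT and at 36.4, 33.4 and 30.4 CPM in those labelled KO. Its group means were 8.86 ± 1.87 and 33.4 ± 3.01 CPM (SD, n = 3), a log2 fold change of 1.92 (SE 0.11). Ccnb2, for cyclin B2 (chr9:70407692-70421547, minus strand), went from 4.98, 4.15 and 4.35 CPM to 18.8, 21.2 and 17.7 CPM, or 2.10 on the log2 scale (SE 0.09, adjusted p = 1.05e-09 by edgeR's quasi-likelihood test). Both B cyclins were thus more than 3-fold higher in every library labelled KO than the mean of the other group. Their kinase changed less: Cdk1 (chr10:69335146-69352938, minus strand) had 32.4, 30.9 and 32.5 CPM against 69.5, 67.9 and 59.8 CPM, a log2 fold change of 1.04 (SE 0.05). Ccna2, the cyclin A of dividing body cells, and Cdc25c changed by 1.63 and 1.92.

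Cdc25b, the phosphatase that first activates CDK1 at the centrosome, was at 23.0, 22.0 and 19.4 CPM for labelled WT and 28.6, 25.8 and 25.3 CPM for labelled KO. Its log2 fold change was 0.31, with a 95% interval of 0.16 to 0.45 (adjusted p = 0.00169 by edgeR's quasi-likelihood test), so that the groups were apart but the change stayed under 1.5-fold. Per kilobase of exon, the ratio of Cdc25c to Cdc25b in a library was 0.0621, 0.0463 and 0.055 for labelled WT and 0.165, 0.17 and 0.164 for labelled KO. The ratio of these phosphatase transcripts was 3.07-fold higher for labelled KO. It is 1 of 5 ratios chosen after the values had been seen, and none of the 5 was tested.

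All 4 mitotic kinases of the list rose. Nek2, a kinase that separates the centrosomes, had 6.96, 4.66 and 5.26 CPM in the libraries labelled WT and 22.0, 19.5 and 18.8 CPM in those labelled KO (log2 fold change 1.84, SE 0.11). Plk1, the Polo-like kinase that acts from mitotic entry to cytokinesis, went from 7.24, 5.82 and 5.08 CPM to 22.0, 21.6 and 17.1 CPM (1.75, SE 0.12). Aurka, the aurora kinase of the spindle poles, was at 6.92, 5.31 and 5.36 CPM against 18.5, 15.4 and 14.2 CPM (1.45, SE 0.12). In each of the 3 the first library labelled WT was the highest of its group, and the third labelled KO the lowest of its own. Melk, a kinase of dividing cells, changed by 1.47 on the log2 scale.

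Of the 5 spindle checkpoint genes, 4 rose. Ttk, which encodes the checkpoint kinase MPS1, was at 3.35, 2.84 and 3.07 CPM for labelled WT and 10.8, 11.0 and 8.88 CPM for labelled KO (log2 fold change 1.73, SE 0.11). Bub1, a checkpoint kinase of the kinetochore, was at 6.92, 5.22 and 4.89 CPM against 17.2, 16.2 and 14.5 CPM (1.49, SE 0.11). Bub1b changed by 1.47 and Mad2l1, for the MAD2 protein that inhibits CDC20, by 0.88. Bub3, the partner that brings BUB1 and BUBR1 to the kinetochore, stood apart from them with 57.2, 53.7 and 55.4 CPM against 65.6, 63.7 and 59.0 CPM. Its log2 fold change of 0.18 had a 95% interval of 0.09 to 0.28 (adjusted p = 0.00338 by edgeR's quasi-likelihood test). Per kilobase, Bub1b was at 0.375, 0.329 and 0.302 of the level of Bub3 in the libraries labelled WT and at 0.869, 0.869 and 0.703 in those labelled KO.

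The genes that act at the onset of anaphase held the only member with a lower level. Ube2c, the ubiquitin-conjugating enzyme of the anaphase-promoting complex, was at 8.65, 5.91 and 5.39 CPM for labelled WT and 25.1, 23.4 and 20.6 CPM for labelled KO (log2 fold change 1.80, SE 0.13). Cdc20, the activator of that complex, went from 7.05, 7.29 and 6.39 CPM to 24.8, 24.5 and 19.2 CPM (1.73, SE 0.10). Espl1, which encodes separase, the protease that cuts cohesin, changed by 1.32. Pttg1 encodes securin, the inhibitor of separase, and lies at chr11:43420250-43426251 on the minus strand. Pttg1 had 21.1, 20.9 and 21.4 CPM in the libraries labelled WT and 17.4, 18.4 and 17.8 CPM in those labelled KO. The groups did not overlap, and the log2 fold change of -0.24 (95% interval -0.35 to -0.13, adjusted p = 0.00101 by edgeR's quasi-likelihood test) did not reach the 1.5-fold limit. The Espl1 to Pttg1 ratio per kilobase was 0.143, 0.118 and 0.12 for labelled WT and 0.406, 0.36 and 0.358 for labelled KO, 2.96-fold higher on average.

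All 8 kinesins rose. Kif2c, whose product MCAK takes microtubules apart at the centromere, was at 4.15, 3.31 and 2.85 CPM against 13.3, 14.5 and 10.5 CPM (log2 fold change 1.90, SE 0.14). Kif20a, a kinesin of the late spindle and of cytokinesis, had 19.0, 14.6 and 15.8 CPM for labelled WT and 61.2, 62.7 and 52.8 CPM for labelled KO (1.84, SE 0.08). The smallest change of the group was that of Kif4, a chromosome-bound motor, from 8.74, 6.54 and 6.99 CPM to 14.7, 14.5 and 12.9 CPM (0.93, SE 0.10). Kif11, the motor that pushes the spindle poles apart, changed by 1.72, Kif23 of the central spindle by 1.74 and Kif15 by 1.60. Kif18a, which limits chromosome movements, and Kif22 changed by 1.11 and 1.10.

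All 10 centromere and kinetochore genes rose. Ska1, whose product couples kinetochores to microtubule ends, had the largest log2 fold change of the 54 at 2.11 (SE 0.19), from 0.989, 0.746 and 0.752 CPM to 3.64, 4.10 and 2.91 CPM. It also had the fewest reads, with a lowest count of 24. Nuf2 of the NDC80 complex was at 7.24, 5.40 and 6.27 CPM against 23.6, 21.0 and 20.6 CPM (1.79, SE 0.09). The other genes of that complex were close to it, with 1.78 for Ndc80, 1.74 for Spc24 and 1.46 for Spc25. Cenpk, of the inner kinetochore network that stays on the centromere all through the cell cycle, was at 4.31, 4.18 and 3.92 CPM for labelled WT and 6.58, 6.86 and 6.36 CPM for labelled KO (0.68, SE 0.09), the smallest change among the called members. Cenpm of the same network changed by 1.23, and Cenpa, the histone H3 variant that marks the centromere, by 1.58. Cenpe and Cenpf, large proteins of the outer kinetochore, changed by 1.78 each.

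The 4 genes of the chromosomal passenger complex rose. Aurkb, its kinase, was at 10.3, 7.05 and 8.08 CPM in the libraries labelled WT and 27.4, 24.2 and 20.2 CPM in those labelled KO (2.83-fold). Birc5, for survivin, went from 6.80, 5.46 and 4.98 CPM to 17.1, 16.9 and 15.1 CPM (1.51, SE 0.10). Cdca8, for borealin, was at 3.70, 2.66 and 3.16 CPM against 10.4, 10.5 and 8.91 CPM (1.65, SE 0.12). These 3 changed by similar amounts, and the scaffold Incenp by less, from 33.4, 24.8 and 25.9 CPM to 60.9, 59.4 and 51.8 CPM (1.03, SE 0.09). Per kilobase, Cdca8 was at 0.0926, 0.0894 and 0.102 of the level of Incenp for labelled WT and at 0.142, 0.148 and 0.144 for labelled KO.

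All 6 genes of spindle assembly and cytokinesis rose. Anln, for the actin-binding anillin of the cleavage furrow, was at 22.0, 18.5 and 18.5 CPM for labelled WT and 73.7, 69.6 and 64.7 CPM for labelled KO (log2 fold change 1.82, SE 0.07). Ect2, the exchange factor that activates RHOA at the furrow, went from 12.2, 9.08 and 8.27 CPM to 30.8, 29.7 and 26.6 CPM (1.56, SE 0.11). Racgap1, which with the kinesin KIF23 forms centralspindlin, was at 34.2, 29.3 and 28.4 CPM against 77.7, 77.3 and 68.0 CPM (1.28, SE 0.07). Every library labelled KO was well above every library labelled WT for the 3 genes. The microtubule binders Tpx2, Prc1 and Nusap1 changed by 1.55, 1.55 and 1.48.

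The 6 genes of mitotic chromosome structure rose, with a lower median (1.10) than any other role with 4 or more members. Top2a, for topoisomerase II alpha, which untangles sister DNA (chr11:98992943-99024189, minus strand), was at 64.7, 52.5 and 51.0 CPM for labelled WT and 173, 173 and 150.5 CPM for labelled KO (log2 fold change 1.56, SE 0.08). Mki67, for the proliferation antigen Ki-67, went from 31.0, 26.6 and 29.5 CPM to 71.3, 70.6 and 68.6 CPM (1.27, SE 0.05). Smc4, a condensin core subunit, was at 92.6, 96.4 and 98.5 CPM against 162, 165 and 162 CPM (0.76, SE 0.03), the smallest change of this role. Its partner Smc2 changed by 1.12, and the condensin I subunits Ncapg and Ncaph by 1.08 and 1.01. The Smc2 to Smc4 ratio per kilobase was 0.165, 0.142 and 0.141 for labelled WT and 0.211, 0.194 and 0.164 for labelled KO, and these ratios overlapped.

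Foxm1, the transcription factor that binds many G2/M promoters with the MuvB complex, was at 28.4, 21.2 and 20.9 CPM in the libraries labelled WT and 54.2, 52.5 and 48.6 CPM in those labelled KO. Its log2 fold change was 1.14 (SE 0.09, adjusted p = 2.94e-07 by edgeR's quasi-likelihood test).

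**Figure D2:**
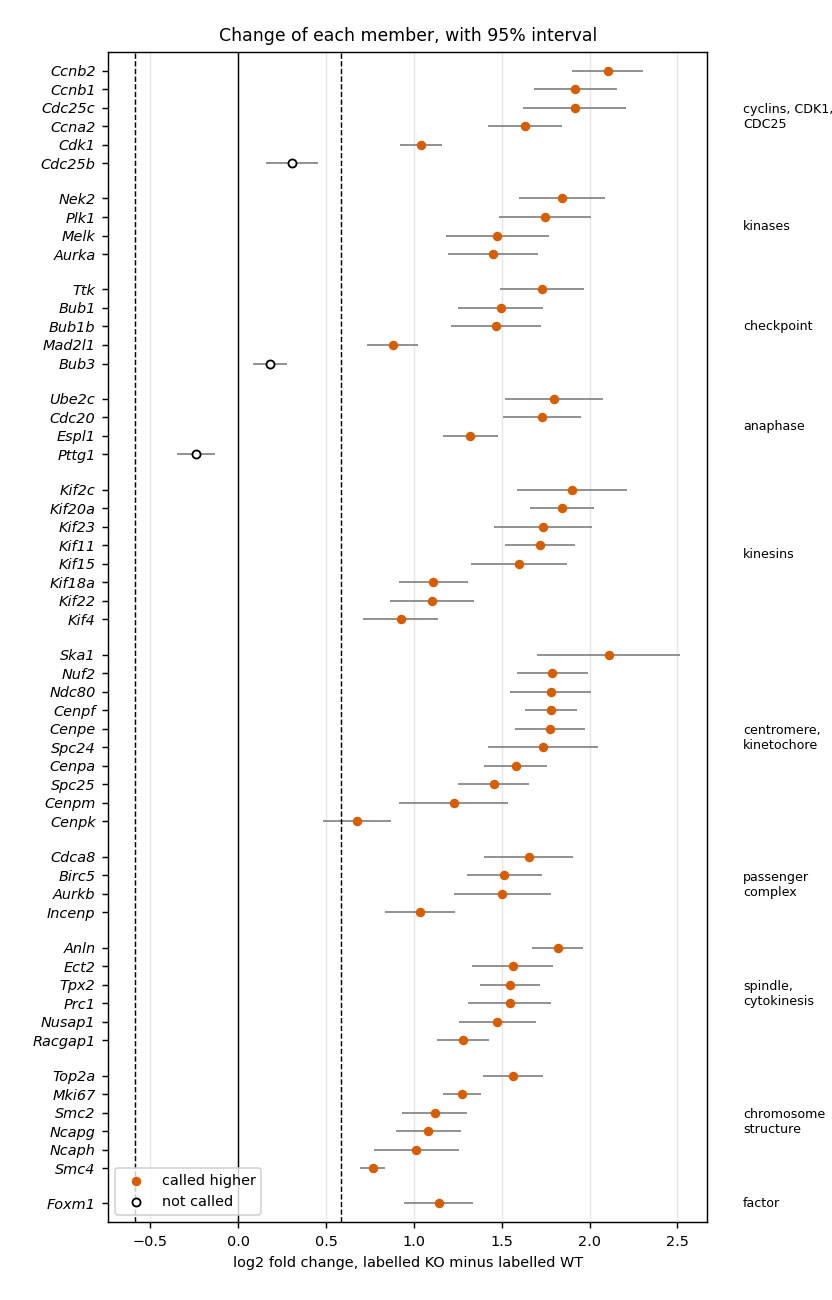
Log2 fold change of each of the 54 genes, labelled KO minus labelled WT, with its 95% interval; dashed lines mark a 1.5-fold change in either direction. Filled points are the 51 genes called higher and open points are Cdc25b, Bub3 and Pttg1, whose intervals stay between the dashed lines.

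The 54 genes did not all change by the same amount. The log2 fold changes of 38 members had a 95% interval wholly above 1, and 22 members changed by at least 3-fold. Neither count was taken over all genes, so both describe the members only. At the other end 7 members were under 1.0, and these were Cdc25b, Bub3, Mad2l1, Pttg1, Kif4, Cenpk and Smc4. Among the genes named as partners, the interval of Cdk1 (0.92 to 1.16) lay below those of Ccnb1 (1.68 to 2.15) and Ccnb2 (1.90 to 2.30).

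The order of the levels changed between the groups. On the RPKM scale (CPM per kilobase of annotated exon), Smc4 was the highest member in both, at 18.4 ± 0.57 for labelled WT and 31.3 ± 0.31 for labelled KO (SD, n = 3). Second to it for labelled WT came Pttg1 at 10.6 ± 0.13, which was in place 13 for labelled KO at 8.94 ± 0.25. Bub3 went from place 3 (7.91 ± 0.25) to place 12 (8.96 ± 0.49), next to Pttg1 and within its spread. Top2a rose from place 6 (6.22 ± 0.83) to place 2 (18.4 ± 1.46), and Kif20a from place 11 (3.80 ± 0.52) to place 3 (13.6 ± 1.23), a level within the spread of Cdk1 (13.3 ± 1.05) and Incenp (13.3 ± 1.13). The lowest levels were 0.311 ± 0.05 for Ska1 in the libraries labelled WT and 0.827 ± 0.02 for Kif18a in those labelled KO.

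The members moved together between wells of the same label. On the log2 CPM scale the median member of the first library labelled WT lay 0.21 above its group mean, and that library was the highest of its group for 50 of 54 members. The third library labelled KO lay at -0.13 and was the lowest of its group for 52 of 54. Medians over all genes tested stayed between -0.0021 and 0.0021 in the 6 libraries, which scaling to the bulk of genes keeps near 0. The median of 27 S phase genes lay at 0.18 in the first library labelled WT and at -0.11 in the third labelled KO. The median SD between wells was 0.207 and 0.128 for the members, for labelled WT and labelled KO. For all genes tested it was 0.068 and 0.064, and these genes were not matched to the members for level. Even so, the summed level of the 54 genes was 696 to 815 CPM for labelled WT and 1618 to 1867 CPM for labelled KO, and the groups did not overlap. Without the first library labelled WT the median log2 fold change of the members was 1.65, and without the third labelled KO it was 1.61, with 51 genes called higher in both cases.

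**Figure D3:**
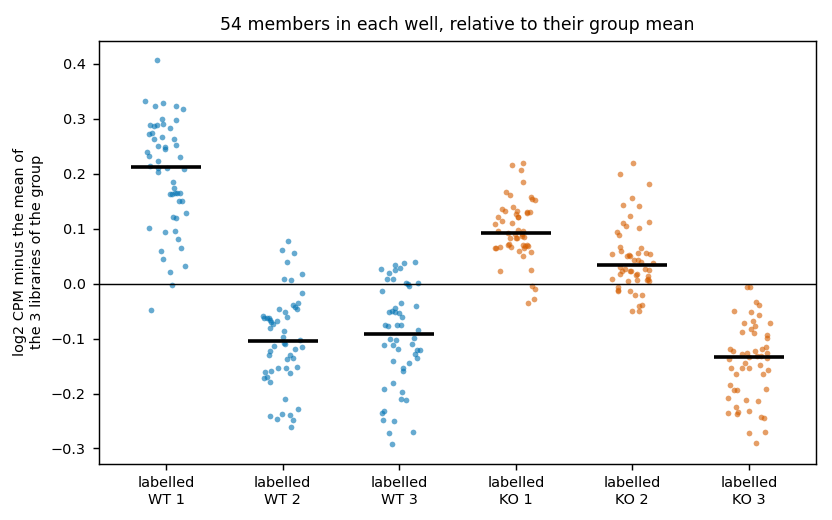
Log2 CPM of each of the 54 genes in each library minus the mean of the 3 libraries of its group, 1 point per gene; the horizontal bars are medians over the genes and sideways scatter has no meaning. The medians are 0.21, -0.10 and -0.09 for labelled WT and 0.09, 0.03 and -0.13 for labelled KO.

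Other genes of the same pathway were read from lists by role. Of 59 further mitotic genes tested, 50 were called higher and 0 lower, beside 11.6% and 6.1% of all genes tested. Their median log2 fold change was 1.23. Genes called higher included Hmmr (1.93), for a microtubule-associated protein, and Depdc1a (1.89). Psrc1, a spindle protein, and Zwint, a kinetochore protein, were not called, with -0.14 and -0.03. In condensin II, Ncapg2 (0.89) and Ncapd3 (0.80) were called higher and Ncaph2 (0.09) was not. Both condensins thus had subunits that rose.

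The lists of cohesin genes, anaphase-promoting complex subunits and G2/M gene regulators held few calls. Over all genes tested, 11.6% were called higher and 6.1% lower. None of 9 cohesin genes was called, with a median of 0.01. Of these, 7 had an unadjusted p under 0.05 by edgeR and 6 by DESeq2. The share of all genes under that unadjusted limit was not counted, so such counts are no result about this list or the next. By adjusted p alone, 3 cohesin genes were higher and 3 lower (-0.37 to 0.26), beside 29.9% and 28.8% of all genes tested. Likewise 0 of 15 core subunits of the anaphase-promoting complex were called, with 10 at unadjusted p under 0.05 by edgeR and 9 by DESeq2. By adjusted p alone, 5 of these subunits were higher and 4 lower (-0.38 to 0.39). Their median was -0.0047 and turned to 0.0522 with upper-quartile and 0.0299 with total-count scaling. Ube2c and Cdc20, which work with that complex, were 3.48-fold and 3.31-fold higher. Among 13 regulators of G2/M genes, which are MuvB, pocket protein, E2F, NF-Y and MYB family genes, only Rbl1, for the pocket protein p107, was called (0.66). By adjusted p alone, 8 of the 13 were higher and 2 lower, beside 29.9% and 28.8% of all genes tested, and their median was 0.17. Mybl2, for B-MYB, was among the 8, at 0.49 (adjusted p = 0.00233 by edgeR's quasi-likelihood test). Pkmyt1, a kinase that inhibits CDK1, was called higher (1.19), and Wee1, which does the same in the nucleus, was not (0.26).

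For S phase genes the median was lower than for the members. Of 27 tested, 15 were called higher and 0 lower, with a median of 0.61, beside 11.6% and 6.1% of all genes tested called. The largest were Rrm2 (1.37), a subunit of ribonucleotide reductase, Mcm5 (1.10) of the replicative helicase and Cdt1 (1.02), which loads it. E2f1, a factor that drives entry into S phase, was at -0.14 and not called.

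**Figure D4:**
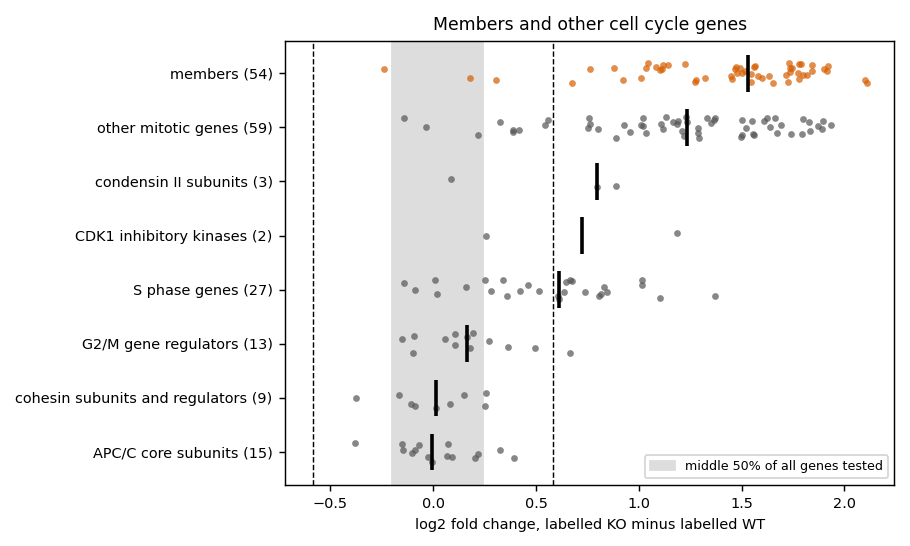
Log2 fold change, labelled KO minus labelled WT, of the 54 members and of the other lists, 1 point per gene and a bar at each median; dashed lines mark a 1.5-fold change and the grey band holds the genes between the lower and upper quartile of all genes tested (-0.20 to 0.24). The medians run from 1.53 for the members and 1.23 for other mitotic genes to about the level of all genes for cohesin and the anaphase-promoting complex.

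Returning to the promoters, 44 of the 54 members had a RefSeq window of 250 bases before to 50 bases after a start, and 36 of these starts lay within 100 bases of the GENCODE 5′ end of the gene (148 bases away for Bub3). TTTGAA or TTTAAA was found on either strand in 32 of the 44 windows, or 72.7%, beside 27.8% of 27025 promoters of all genes and 18.9% of 9996 promoters of tested genes. TTTGAA alone was in 65.9%, beside 18.1% and 11.6%, and TTTAAA, which reads the same on both strands, was in 20.5%, beside 13.2% and 9.0%. CCAAT was also in 32 windows (72.7%), beside 37.9% of all promoters and 39.3% of those of tested genes. GGCGG, a short GC-rich run, was in 90.9% of the windows and in 49.0% and 82.9% of the others. The E2F letters TTTCGCGC or TTTGGCGC were in 3 windows (6.8%), beside 0.8% and 1.6%.

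Members with CHR letters had a median log2 fold change of 1.57, and the 12 without them 1.17. These 12 include Cdc25b and Pttg1, which were not called. Split by TTTGAA alone, the medians were 1.56 with it and 1.48 for the 15 without it. Split by TTTAAA alone, they were 1.78 with it and 1.47 for the 35 without it. Of 41 called members with a window, 31 held CHR letters and 26 held both CHR and CCAAT letters. With and without CCAAT the medians were 1.519 and 1.495. No match was found for CHR or CCAAT in the window of Pttg1, whose RefSeq start lay 270 bases from the GENCODE 5′ end. These shares are descriptions of letters in fixed windows, and a promoter with no match says nothing about a factor.

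The members lay on 16 chromosomes. The median log2 fold change of all genes on a chromosome ran from -0.29 to 0.19 over the genome, and that of the members on a chromosome from 0.925 to 1.92. Exons of 16 members overlapped a gene on the other strand, and whether counting used strand is not given in the sources used here. These included Kif20a, with 1271 bases shared with Cdc23, and Ube2c, with 592 bases shared with Tnnc2. Of the 38 members without such an overlap, 36 were called higher. Ccnb1, Ccnb2, Kif22 and Kif4 have annotated pseudogenes named as the gene symbol with the ending -ps, 4 in all. The counting could have split or added their reads, so the levels of these 4 genes are less certain. Pseudogenes under other names were not looked for, so other members may have some too.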

How the data were processed

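The study sequenced polyadenylated RNA of mouse pancreatic fibroblasts in 6 libraries. For each gene and library the authors deposited a raw count and a log2 CPM value made with voom. The submitters' processing notes name STAR 2.7.2b, featureCounts, limma and build GRCm38.p6, and how reads on several places or strands were counted is not given in the sources used here. The deposited log2 values were used for an alternative only. The quasi-likelihood F test of edgeR 4.0.16 (R 4.3.3) was run on the counts of 14289 genes after TMM scaling and filterByExpr, with Benjamini-Hochberg adjustment, and called genes at 0.05 and 1.5-fold. The SE was taken from the log2 fold change and its F statistic. Only the edgeR fit and its calls were tried on simulated counts, drawn with mean levels and spread from these data. The outcome of that trial is not reported here. Groups came from the genotype labels. Library totals of 31728420 to 41035931 counts set the precision, and the lowest count of a member was 24. Exon lengths and positions are from GENCODE M21 and promoter windows from RefSeq, both GRCm38.

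The members, lists and motifs were chosen with earlier results of these data known, so the share of members called is a description. Values in every library are given for the 2 members of each role with the largest change and the 1 with the smallest, and for Ccnb1, Cdk1, Plk1, Aurka, Aurkb, Foxm1, Mki67 and Top2a. Psrc1, Zwint, Ncaph2, Mybl2, Wee1 and E2f1 are named outside that rule, after their values were seen, and 1 gene of the other lists is not reported here. Alternatives were 3 other scalings (RLE, total-count, upper-quartile), other filters and fold limits, DESeq2 1.42.0, limma 3.58.1 and leaving out each library.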

Additional observations from a re-analysis of the deposited data

How the results depend on the processing

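Of the 54 members, 51 were called higher and 0 lower under every alternative scaling, filter and tool and without each library in turn. The fold limit moved these counts: with no fold limit 53 were higher and 1 (Pttg1) was lower, and with a 2-fold limit 47 were higher. Over all 14289 genes tested, 4277 were higher and 4114 lower with no fold limit, and 1052 and 404 with the 2-fold limit. Without a replicate, the counts ranged from 51 to 51 higher and 0 to 0 lower, and the median log2 fold change from 1.453 to 1.652. Over the scalings and tools the median was 1.525 to 1.587, the highest with upper-quartile scaling, which moved the median of all genes to 0.0588. For 30 named members under 16 alternatives, 474 of 480 values kept their direction and their side of the limits, 0 turned direction, Kif4, Cenpk and Smc4 were no longer called at 2-fold, and Cdc25b, Bub3 and Pttg1 were called with no fold limit; the limits alone set these differences. No paired analysis was possible because the labels give no replicate number that the groups share. Ska1, at 24 to 31 counts in the libraries labelled WT, had the widest interval of the members (1.70 to 2.51), and its level is the least precise.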
